A study of Homo sapiens with 8 samples.

Results

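The genes described here build the extracellular matrix, anchor liver cancer cells to it and cut or protect it. A list of 50 genes was named, holding interstitial and basement membrane proteins, matricellular proteins, integrin subunits and other matrix receptors, metalloprotease inhibitors, proteases and a crosslinking enzyme. Of these, 48 were measured among the 19775 genes of the arrays. VTN lay only on probe sets shared with another gene and LAMA3 was not analysed here. Each gene was read from the probe set (the group of short probes for a transcript) that was paired with it alone and had the highest mean over all arrays, and FN1 was read from every such probe set. The 48 genes had 156 probe sets in all, with 1 probe set for 8 genes and several for 40, up to 13 for CD44.

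The study asked what loss of KLHL23, a Kelch-like protein that its title ties to epithelial-mesenchymal transition, does to hepatoma cells. Total RNA was measured on 8 Affymetrix arrays, 2 in each of 4 groups: Huh7 with shKLHL23, Huh7 with shLuc, Hep-3B with shKLHL23 and Hep-3B with shLuc. Huh7 and Hep-3B are established human hepatoma cell lines. All 4 groups were grown in medium with 10% serum, received a lentivirus at a multiplicity of infection of 2, and were put under puromycin from 48 hours on, so the control cells carry a virus and a selected resistance too. shKLHL23 is a short hairpin RNA against KLHL23 and shLuc a hairpin control named for luciferase. The labels give the knockdown hairpin the same name in both lines, so loss of KLHL23 and other effects of that hairpin cannot be told apart. The arrays of each group are numbered 1 and 3, and whether they were separate cultures is not in the labels, so the p-values below rest on the spread between those 2 arrays, which could be technical.

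Epithelial cells sit on a basement membrane, a sheet of laminins, type IV collagen, nidogen and perlecan, and hold on to it through integrins, receptors made of an alpha and a beta chain. Metalloproteases of the MMP and ADAM families cut matrix and cell surface proteins, and the TIMP proteins inhibit them. In liver most fibrillar collagen is made by stellate cells and fibroblasts, while hepatoma cells grown alone make laminins, fibronectin and many surface proteases themselves.

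KLHL23 read 5.78 and 5.88 in the Huh7 shKLHL23 arrays and 7.89 and 7.87 in the Huh7 shLuc arrays, on the log2 scale of the deposited values. In Hep-3B it read 7.21 and 6.15 with shKLHL23 and 7.81 and 7.84 with shLuc. The knockdown arrays lay below the control arrays in both lines, and the decrease passed the test in Huh7 (log2 difference -2.05, limma adjusted p = 0.00363) but not in Hep-3B (-1.14, limma adjusted p = 0.0833). The Hep-3B knockdown arrays stood apart from each other in KLHL23. Hepatocyte genes marked all groups: 11 markers such as ALB and APOA1 were measured, and none lay below the lower quartile in both arrays of a group. Their mean level was 12.2 to 12.52 in Huh7 shKLHL23 and 12.16 to 12.2 in Huh7 shLuc, and 12.37 to 12.41 in Hep-3B shKLHL23 and 12.21 in Hep-3B shLuc. Of these 11, TTR rose in both lines, by 1.23 in Huh7 (limma adjusted p = 0.00524) and 1.58 in Hep-3B (limma adjusted p = 0.0148), and FGA rose in Huh7 by 0.38 (limma adjusted p = 0.0379). Of 5 bile duct cell (cholangiocyte) markers, 2 rose and 1 fell in Huh7: KRT19 rose by 1.32 (limma adjusted p = 0.00212), EPCAM rose by 0.36 (limma adjusted p = 0.0293) and SOX9 fell by 0.56 (limma adjusted p = 0.0208). Their mean level was 8.04 to 8.16 in Huh7 shKLHL23 and 7.89 to 7.95 in Huh7 shLuc, and 8.56 to 8.59 in Hep-3B shKLHL23 and 8.6 to 8.69 in Hep-3B shLuc, where 0 of 5 passed the limma test and 1 had an unadjusted p under 0.05. The part of these marker changes in the results was not tested. Stellate cell and fibroblast markers averaged 3.87 to 4.15 over 10 genes in all arrays. In each group 2 or 3 of them lay below the lower quartile in both arrays, and 0 of 10 passed the limma test in either line. Unadjusted, the p was under 0.05 for 1 of these 10 in Huh7 and 0 in Hep-3B. Endothelial (8 genes) and leukocyte and macrophage (7 genes) markers had 0 calls in either line, with 1 of each at an unadjusted p under 0.05 in each line. These marker counts stand beside 13.5% of all genes called in Huh7 and 0.693% in Hep-3B. At an unadjusted p under 0.05 limma counted 27.5% and 17.7% of all genes. The gap between the 3′ and the 5′ control probe set for ACTB, a sign of RNA quality, moved with the groups: it was 0.525 and 0.546 in Huh7 shKLHL23 against 0.873 and 0.833 in Huh7 shLuc, and 0.737 and 0.753 in Hep-3B shKLHL23 against 0.442 and 0.537 in Hep-3B shLuc. For GAPDH the gap was 0.148 and 0.112 in Huh7 shKLHL23 against 0.132 and 0.089 in Huh7 shLuc, so the Huh7 groups overlapped. In Hep-3B it was 0.223 and 0.236 with shKLHL23 against 0.117 and 0.12 with shLuc. The part of these gaps in the results was not tested.

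In Huh7 the knockdown was accompanied by changes in 10 of the 48 genes (limma adjusted p under 0.05, adjusted over all genes), where 13.5% of all genes were called. Of these 10, 5 rose and 5 fell, against 5.75% and 7.73% of all genes. The rises were in the inhibitors TIMP1 and TIMP2, the basement membrane genes HSPG2 and LAMB3 and the protease MMP15. The falls were in the integrin subunit ITGA2, the sheddases ADAM17 and ADAM10, the laminin subunit LAMB1 and the matrix protein FBLN1. In Hep-3B FBN1 alone rose and 0 fell, where 0.693% of all genes were called, 0.536% higher and 0.157% lower. Without adjustment, at p under 0.05, limma counted 4 higher and 3 lower genes of the 48 in Hep-3B, against 9.91% and 7.75% of all genes, and 10 higher and 9 lower in Huh7, against 12.7% and 14.8% of all genes.

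**Figure D1:**
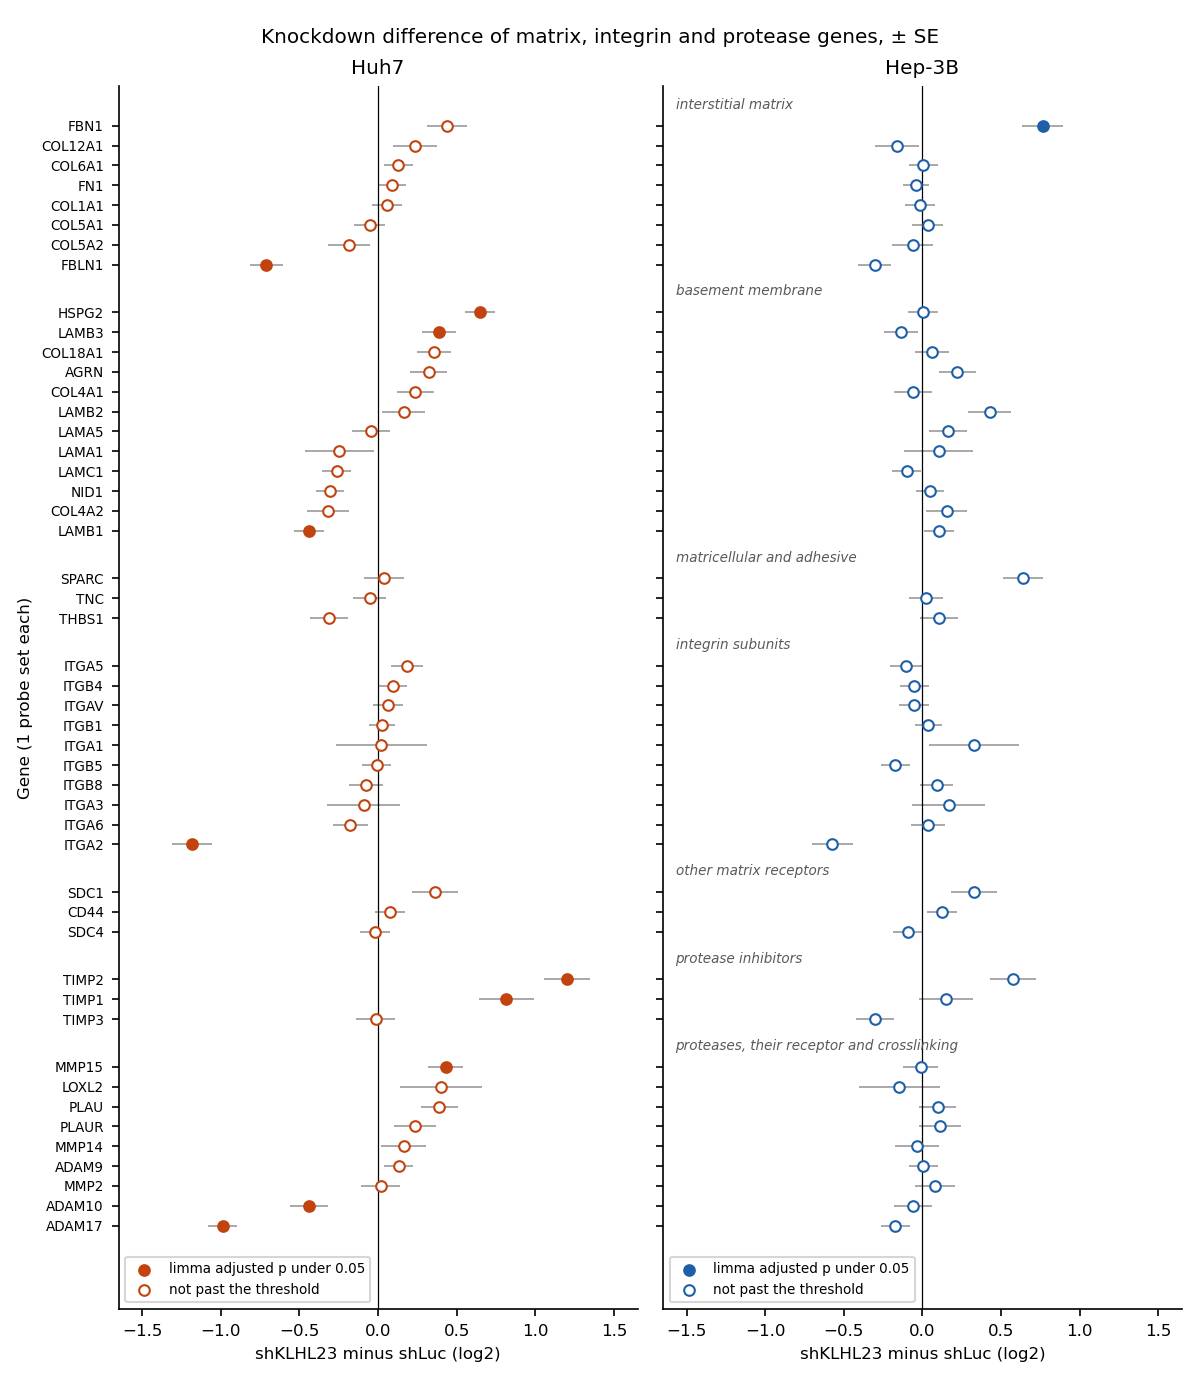
Log2 difference shKLHL23 minus shLuc of each of the 48 genes in Huh7 and Hep-3B, ordered by role, with bars of 1 standard error from limma and filled points for genes called at an adjusted p under 0.05. Most genes lie near 0, TIMP2 lies farthest to the right in Huh7 at 1.2 and ITGA2 farthest to the left at -1.18.

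Promoter sequences are shown for 2 of the genes that fell in Huh7 and 2 that rose, to set side by side the start regions of genes that moved in opposite directions. They come from RefSeq, assembly GRCh38.p14, and run from 250 bases before to 50 bases after the annotated start, 5′ to 3′ on the gene's strand. Capitals mark the GC box, searched as GGGCGG on both strands, so that CCGCCC is its reverse form. ITGA2 lies at chr5:52989102-52989401 on the plus strand, ADAM17 at chr2:9555781-9556080 on the minus strand, HSPG2 at chr1:21937261-21937560 on the minus strand and TIMP1 at chrX:47582186-47582485 on the plus strand.
ITGA2: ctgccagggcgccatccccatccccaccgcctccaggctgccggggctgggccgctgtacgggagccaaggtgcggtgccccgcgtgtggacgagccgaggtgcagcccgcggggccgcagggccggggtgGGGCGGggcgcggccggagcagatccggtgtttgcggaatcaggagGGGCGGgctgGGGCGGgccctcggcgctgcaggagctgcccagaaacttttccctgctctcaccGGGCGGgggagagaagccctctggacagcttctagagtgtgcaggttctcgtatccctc
ADAM17: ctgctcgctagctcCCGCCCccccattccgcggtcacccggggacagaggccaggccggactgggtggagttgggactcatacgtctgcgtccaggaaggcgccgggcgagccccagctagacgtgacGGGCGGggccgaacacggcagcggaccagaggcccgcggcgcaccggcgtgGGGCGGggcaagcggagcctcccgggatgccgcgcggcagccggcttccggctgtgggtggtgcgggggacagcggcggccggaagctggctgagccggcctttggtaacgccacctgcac
HSPG2: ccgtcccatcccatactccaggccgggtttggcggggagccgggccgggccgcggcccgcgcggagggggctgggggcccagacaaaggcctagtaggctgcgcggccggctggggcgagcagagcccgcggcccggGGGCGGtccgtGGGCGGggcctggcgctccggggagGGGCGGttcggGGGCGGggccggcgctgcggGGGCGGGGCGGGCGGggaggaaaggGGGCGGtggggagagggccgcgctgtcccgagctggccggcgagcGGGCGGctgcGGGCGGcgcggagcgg
TIMP1: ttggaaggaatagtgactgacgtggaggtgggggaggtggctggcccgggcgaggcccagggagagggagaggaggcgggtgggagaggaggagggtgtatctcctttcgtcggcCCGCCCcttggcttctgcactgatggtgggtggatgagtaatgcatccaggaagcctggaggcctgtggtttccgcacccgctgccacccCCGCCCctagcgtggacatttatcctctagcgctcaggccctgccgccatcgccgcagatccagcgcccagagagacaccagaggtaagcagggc

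The GC box occurred 4 times in the ITGA2 window, 3 times in ADAM17, 10 times in HSPG2, where matches overlap, and 2 times in TIMP1. Of the 11 genes called in either line, 10 had a RefSeq promoter in the table used and TIMP2 had none. A GC box was held by 9 of these 10 genes, against 45% of all 35116 promoters of that length. A gene with several annotated starts, such as LAMB3, counted if any of its windows matched. The shares of all promoters count single windows, so the counts and shares are not directly comparable. FBN1, the gene called in Hep-3B, was the one without this motif. The AP-1 motif TGANTCA, where N is any base, was found in LAMB3 alone and not in each of its windows, against 7.71% of all promoters. The TATA motif TATAAA was found in 0 of 10, against 11.5%. Genes that rose and genes that fell both held GC boxes. These matches describe letters in a window and are no binding data.

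Among the interstitial matrix genes, FBN1 encodes fibrillin 1, the backbone of elastic microfibrils. It read 5.20 and 5.38 in Hep-3B shKLHL23 and 4.59 and 4.46 in Hep-3B shLuc. In Huh7 it read 5.61 and 5.31 with shKLHL23 and 4.94 and 5.11 with shLuc. Knockdown arrays lay above control arrays in both lines. The increase was 0.76 in Hep-3B (SE 0.13, 1.70-fold, limma adjusted p = 0.0453) and 0.44 in Huh7 (SE 0.13, limma adjusted p = 0.055), and the mean of the 2 differences was 0.60 (SE 0.09, limma adjusted p = 0.00521). The Hep-3B call was lost when any of 7 of the 8 arrays was left out (adjusted p up to 0.315, differences 0.68 to 0.85), Hep-3B shKLHL23 replicate 1 being the exception. It was also lost on the brightest probe set without the _s_at and _x_at designs, which are open to other transcripts (0.07, adjusted p = 0.891). That probe set lay below the lower quartile in all 8 arrays, so a change in it could not have been measured well. Of the 3 FBN1 probe sets, 1 was called in Hep-3B.

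FBLN1 encodes fibulin 1, a calcium-binding glycoprotein of matrix fibres and basement membranes. It read 7.65 and 7.85 in Huh7 shKLHL23 and 8.42 and 8.51 in Huh7 shLuc, and 7.24 and 7.08 in Hep-3B shKLHL23 and 7.47 and 7.45 in Hep-3B shLuc. All knockdown arrays lay below the control arrays of their line. It fell by 0.71 in Huh7 (SE 0.11, 1.64-fold lower, limma adjusted p = 0.00536), and the Hep-3B difference was -0.30 (limma adjusted p = 0.185). Only 2 of its 5 probe sets fell in Huh7, and its brightest probe set outside the _s_at and _x_at designs differed by -0.0064 (adjusted p = 0.983). Without Huh7 shLuc replicate 3 the difference was -0.67 (adjusted p = 0.0525). The 5 measured fibrillar and associated collagens COL1A1, COL5A1, COL5A2, COL6A1 and COL12A1 were not called in either line, and their differences together with FN1 ranged from -0.18 (COL5A2) to 0.23 (COL12A1) in Huh7. COL5A2 lay below the lower quartile in 4 arrays, so its values are close to the floor of the measurement.

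FN1 encodes fibronectin, an adhesive glycoprotein read by integrins and often used as a mesenchymal marker. It had 7 probe sets, tested among all 54675. The 4 brightest, with levels near the top of the arrays, differed by -0.07 to -0.04 in Hep-3B and by 0.08 to 0.10 in Huh7 and were not called. They read 12.78 to 13.12, where the highest value of an array was 13.96 to 14.07. Whether levels this high limit the change that can be seen was not tested. Of the 7, 2 fell in Hep-3B, where 1.14% of all probe sets were called and 0.647% fell, and 0 were called in Huh7, where 8.49% were. At an unadjusted p under 0.05 limma counted 3 lower in Hep-3B and 1 higher in Huh7.

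Probe set 214701_s_at of FN1 read 8.56 and 7.93 in Hep-3B shKLHL23 and 9.51 and 9.53 in Hep-3B shLuc, and 9.23 and 8.90 in Huh7 shKLHL23 and 8.45 and 8.50 in Huh7 shLuc. The knockdown arrays lay below the controls in Hep-3B and above them in Huh7. The difference was -1.27 in Hep-3B (limma adjusted p = 0.0224) and 0.59 in Huh7 (limma adjusted p = 0.0948), and the response in Huh7 minus that in Hep-3B was 1.86 (SE 0.27, limma adjusted p = 0.0232), where 0.933% of all probe sets differed between the lines and 0.444% in this direction. Probe set 1558199_at read 4.14 and 3.98 in Hep-3B shKLHL23 and 5.07 and 4.94 in Hep-3B shLuc, a difference of -0.94 (limma adjusted p = 0.0256). In Huh7 it read 4.18 and 4.35 with shKLHL23 and 3.93 and 4.33 with shLuc, and there the knockdown arrays overlapped the controls in part. Probe set 214702_at differed by -0.78 in Hep-3B (limma adjusted p = 0.0526). FN1 probe sets therefore did not read alike, and which transcripts each one covers was not analysed here. The Hep-3B call of 214701_s_at was lost without 5 of the 8 arrays (adjusted p up to 0.186), and that of 1558199_at without 3 (up to 0.225).

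**Figure D2:**
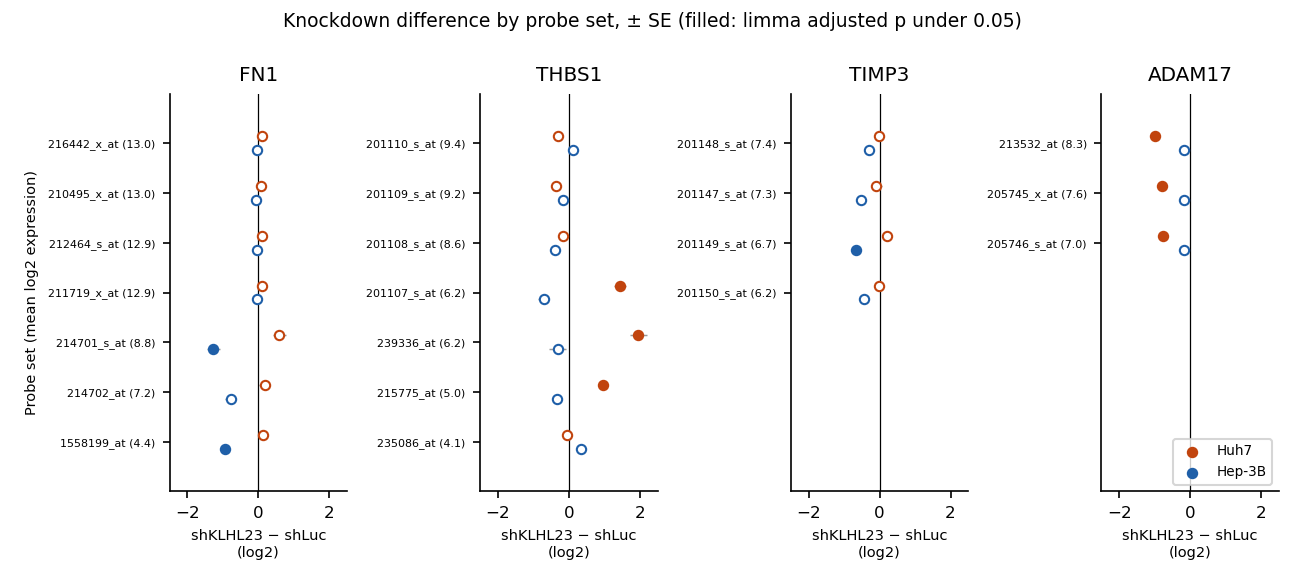
Log2 difference shKLHL23 minus shLuc of each probe set of FN1, THBS1, TIMP3 and ADAM17 in Huh7 and Hep-3B, with the mean log2 level beside its name, bars of 1 standard error and filled points for probe sets called at a limma adjusted p under 0.05 over all probe sets. The bright FN1 probe sets lie near 0 in both lines, while 214701_s_at lies at 0.59 in Huh7 and -1.27 in Hep-3B.

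Of the 12 basement membrane genes, 2 rose, 1 fell and 9 did not pass the test in Huh7, and 0 of 12 passed in Hep-3B, where 13.5% and 0.693% of all genes were called. At an unadjusted p under 0.05 limma counted 4 higher and 4 lower in Huh7, against 12.7% and 14.8% of all genes, and 1 higher in Hep-3B, against 9.91%. HSPG2 encodes perlecan, the large heparan sulfate proteoglycan of basement membranes. It read 7.91 and 7.81 in Huh7 shKLHL23 and 7.13 and 7.29 in Huh7 shLuc, and 8.54 and 8.57 in Hep-3B shKLHL23 and 8.54 and 8.56 in Hep-3B shLuc. The groups were separate in Huh7 and overlapped in Hep-3B. HSPG2 rose by 0.65 in Huh7 (SE 0.09, 1.57-fold, limma adjusted p = 0.00501), and the Hep-3B difference was 0.00. The difference between the lines' responses was 0.64 (limma adjusted p = 0.0648). Without Huh7 shLuc replicate 1 the Huh7 difference was 0.57 (adjusted p = 0.0504), and 1 of 2 HSPG2 probe sets was called.

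LAMB1 and LAMB3 encode laminin beta chains that belong to different laminin trimers. LAMB1 read 9.58 and 9.41 in Huh7 shKLHL23 and 9.98 and 9.89 in Huh7 shLuc, and 9.43 and 9.39 in Hep-3B shKLHL23 and 9.35 and 9.27 in Hep-3B shLuc. Knockdown arrays were below the controls in Huh7 and above them in Hep-3B. It fell by 0.44 in Huh7 (SE 0.10, limma adjusted p = 0.0199), on both of its probe sets. The Hep-3B difference was 0.11 (limma adjusted p = 0.64). LAMB3 read 5.64 and 5.66 in Huh7 shKLHL23 and 5.26 and 5.25 in Huh7 shLuc, and 5.83 in both Hep-3B shKLHL23 arrays and 5.82 and 6.12 in the Hep-3B shLuc arrays. The Huh7 groups were separate and the Hep-3B groups overlapped. LAMB3 rose by 0.39 in Huh7 (SE 0.11, limma adjusted p = 0.0495). The LAMB1 call was lost without Huh7 shLuc replicate 1 (adjusted p = 0.133), Huh7 shLuc replicate 3 (0.0843) or Huh7 shKLHL23 replicate 3 (0.0541). The LAMB3 call was lost without any of 6 of the 8 arrays (adjusted p up to 0.191).

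The other 9 basement membrane genes ranged from -0.32 (COL4A2) to 0.35 (COL18A1) in Huh7 and from -0.10 (LAMC1) to 0.43 (LAMB2) in Hep-3B. NID1 encodes nidogen 1, which links laminin to type IV collagen. It read 10.12 and 10.22 in Huh7 shKLHL23 and 10.47 in both Huh7 shLuc arrays, and 9.04 and 8.98 in Hep-3B shKLHL23 and 9.0 and 8.93 in Hep-3B shLuc. Knockdown arrays were below the controls in Huh7 and overlapped them in Hep-3B. The Huh7 difference of -0.30 missed the threshold (limma adjusted p = 0.0553). LAMB2, another laminin beta chain, read 6.80 and 6.73 in Huh7 shKLHL23 and 6.49 and 6.72 in Huh7 shLuc, and 7.81 and 8.17 in Hep-3B shKLHL23 and 7.60 and 7.52 in Hep-3B shLuc. Its knockdown arrays lay above the control arrays in both lines, by 0.16 and 0.43, and neither difference passed the test (limma adjusted p = 0.508 in Huh7 and 0.15 in Hep-3B).

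The matricellular genes SPARC, TNC and THBS1 were not called in either line by their brightest probe sets. At an unadjusted p under 0.05 limma counted 1 of 3 higher in Hep-3B and 1 of 3 lower in Huh7, against 9.91% and 14.8% of all genes. SPARC, a collagen-binding protein that modulates cell adhesion, read 7.49 and 7.79 in Hep-3B shKLHL23 and 6.94 and 7.06 in Hep-3B shLuc. In Huh7 it read 3.78 and 3.60 with shKLHL23 and 3.72 and 3.58 with shLuc. The Hep-3B knockdown arrays lay above the controls by 0.64 without passing the test (limma adjusted p = 0.0666), and the Huh7 arrays were dim and overlapped. TNC, tenascin C, lay below the lower quartile in all 8 arrays, so a change in it could not have been measured well.

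THBS1 encodes thrombospondin 1, a secreted glycoprotein that binds matrix, integrins and latent TGF-beta. Its brightest probe set, 201110_s_at, differed by -0.31 in Huh7 (limma adjusted p = 0.135), yet 3 of its 7 probe sets rose there, where 3.83% of all probe sets rose. Probe set 201107_s_at read 7.92 and 7.37 in Huh7 shKLHL23 and 6.16 and 6.25 in Huh7 shLuc, and 5.19 and 5.17 in Hep-3B shKLHL23 and 5.95 and 5.84 in Hep-3B shLuc. The knockdown arrays lay above the controls in Huh7 and below them in Hep-3B. It rose by 1.44 in Huh7 (limma adjusted p = 0.00228), and the difference between the lines' responses was 2.15 (limma adjusted p = 0.0114). Probe set 239336_at read 8.74 and 7.87 in Huh7 shKLHL23 and 6.18 and 6.53 in Huh7 shLuc, and 4.94 and 4.90 in Hep-3B shKLHL23 and 5.29 and 5.19 in Hep-3B shLuc. It rose by 1.95 in Huh7 (limma adjusted p = 0.00318), and the Hep-3B difference was -0.32 (limma adjusted p = 0.606). Probe set 215775_at read 6.01 and 5.94 in Huh7 shKLHL23 and 4.97 and 5.07 in Huh7 shLuc, and 4.32 and 4.41 in Hep-3B shKLHL23 and 4.72 and 4.70 in Hep-3B shLuc. It rose by 0.96 in Huh7 (limma adjusted p = 0.0017), and the Hep-3B difference was -0.35 (limma adjusted p = 0.124). For both, knockdown arrays were above the controls in Huh7 and below them in Hep-3B. The other 4 lay between -0.36 and -0.05 in Huh7. The direction of THBS1 in Huh7 therefore depended on the probe set read, and the transcripts each covers were not analysed here. The 3 rises in Huh7 held in each alternative tried.

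Of the 10 integrin subunits, 1 fell and 9 did not pass the test in Huh7, where 13.5% of all genes were called and 7.73% fell. In Hep-3B 0 of 10 passed, where 0.693% of all genes were called. ITGA2 encodes the alpha 2 chain, which pairs with beta 1 as a collagen and laminin receptor. It read 7.56 and 7.62 in Huh7 shKLHL23 and 8.79 and 8.76 in Huh7 shLuc, and 9.32 and 8.93 in Hep-3B shKLHL23 and 9.66 and 9.74 in Hep-3B shLuc. Both knockdown groups lay below their controls without overlap. It fell by 1.18 in Huh7 (SE 0.13, 2.27-fold lower, limma adjusted p = 0.00186), and the Hep-3B difference was -0.57 (limma adjusted p = 0.0766). The mean of the 2 differences was -0.88 (limma adjusted p = 0.00197), and the test of the difference between lines gave -0.61 (limma adjusted p = 0.163). The Huh7 call held in all 17 alternatives tried. Of its 2 probe sets 1 was called, the other lying at -0.63.

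The 9 other integrin subunits ranged from -0.18 (ITGA6) to 0.18 (ITGA5) in Huh7 and from -0.17 (ITGB5) to 0.33 (ITGA1) in Hep-3B. Before adjustment, 1 of the 10 subunits had a limma p under 0.05 in each line, lower in both. Of all genes 14.8% were lower at that threshold in Huh7 and 7.75% in Hep-3B. ITGB1, the beta chain that pairs with ITGA2, differed by 0.02 in Huh7 (SE 0.08) and 0.04 in Hep-3B (SE 0.08). ITGA1, the alpha 1 chain of another collagen receptor, read 5.31 and 6.33 in Huh7 shKLHL23 and 5.73 and 5.87 in Huh7 shLuc, so its Huh7 knockdown arrays spanned the controls. In Hep-3B it read 4.58 and 5.02 with shKLHL23 and 4.59 and 4.36 with shLuc. ITGB8 lay below the lower quartile in 7 of 8 arrays. The receptors CD44, SDC1 and SDC4, a hyaluronan receptor and 2 syndecans, were not called in either line, with the widest differences in SDC1, at 0.36 in Huh7 and 0.33 in Hep-3B. CD44 was dim, at 3.577 to 3.929, not far above the lower quartiles of the arrays.

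**Figure D3:**
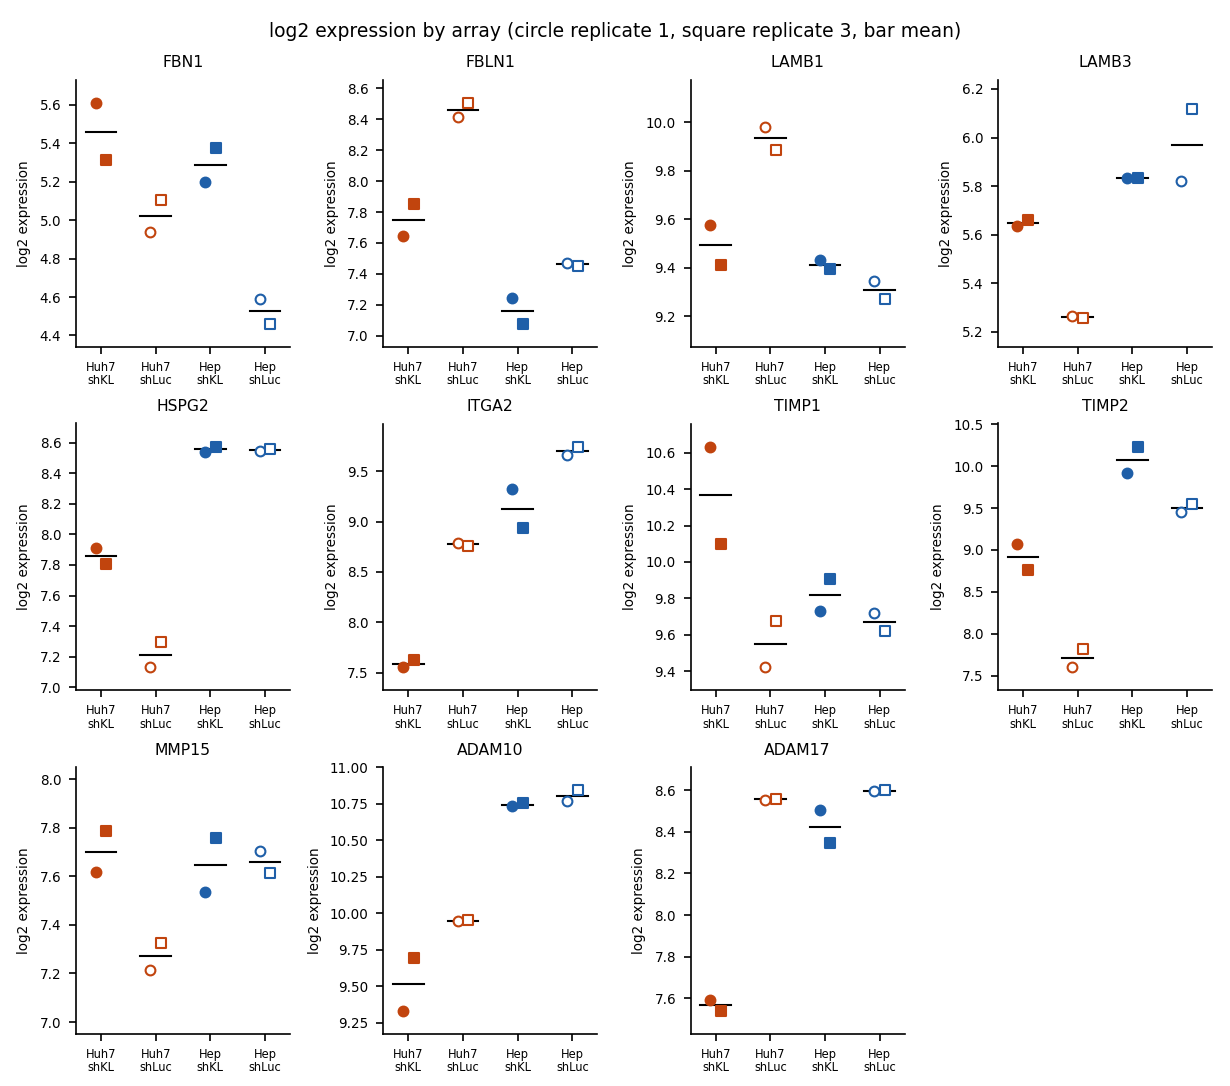
Log2 level in each of the 8 arrays for genes called in either line, with circles for replicate 1, squares for replicate 3 and a bar for the mean of each group; shKL stands for shKLHL23 and Hep for Hep-3B. For ITGA2 and ADAM17 both Huh7 knockdown arrays lie below both Huh7 control arrays, and for TIMP2 both lie above.

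TIMP1, TIMP2 and TIMP3 encode inhibitors of metalloproteases. TIMP2 read 9.07 and 8.76 in Huh7 shKLHL23 and 7.60 and 7.83 in Huh7 shLuc, and 9.91 and 10.23 in Hep-3B shKLHL23 and 9.45 and 9.55 in Hep-3B shLuc. In both lines the knockdown arrays exceeded the control arrays. TIMP2 rose by 1.2 in Huh7 (SE 0.15, 2.30-fold, limma adjusted p = 0.00277), on 3 of 3 probe sets, and the call held in all 17 alternatives tried. The Hep-3B difference was 0.58 (limma adjusted p = 0.0954), and the mean of the 2 differences was 0.89 (limma adjusted p = 0.00264).

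TIMP1 read 10.63 and 10.10 in Huh7 shKLHL23 and 9.42 and 9.68 in Huh7 shLuc, and 9.73 and 9.91 in Hep-3B shKLHL23 and 9.72 and 9.62 in Hep-3B shLuc. The knockdown arrays lay above the control arrays in both lines, by a small margin in Hep-3B. TIMP1 rose by 0.82 in Huh7 (SE 0.17, 1.76-fold, limma adjusted p = 0.0178), against 0.15 in Hep-3B (limma adjusted p = 0.731). The Huh7 call was lost without shLuc replicate 1 (0.69, adjusted p = 0.125), shKLHL23 replicate 1 (0.55, adjusted p = 0.0653) or shLuc replicate 3 (0.94, adjusted p = 0.0615).

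TIMP3, which binds to matrix, read 7.42 and 7.21 in Huh7 shKLHL23 and 7.28 and 7.38 in Huh7 shLuc, and 7.43 and 7.13 in Hep-3B shKLHL23 and 7.61 and 7.56 in Hep-3B shLuc. The Huh7 groups overlapped and the Hep-3B knockdown arrays lay below the controls. Its differences of -0.02 in Huh7 and -0.30 in Hep-3B did not pass the test (limma adjusted p = 0.957 and 0.251). Another of its 4 probe sets, 201149_s_at, read 6.48 and 6.30 in Hep-3B shKLHL23 and 7.12 and 6.99 in Hep-3B shLuc, and fell by 0.66 (limma adjusted p = 0.0337), a call lost without any of 5 of the 8 arrays (adjusted p up to 0.25). In Huh7 that probe set read 6.80 and 6.67 with shKLHL23 and 6.46 and 6.56 with shLuc.

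Of the 9 proteases, their receptor and the crosslinking enzyme, 1 rose and 2 fell in Huh7, against 5.75% and 7.73% of all genes. In Hep-3B 0 of 9 passed, where 0.693% of all genes were called. There 0 of 9 had an unadjusted p under 0.05 either, against 17.7% of all genes. ADAM17 encodes a membrane sheddase that releases TNF and ligands of the EGF receptor. It read 7.59 and 7.54 in Huh7 shKLHL23 and 8.56 in both Huh7 shLuc arrays, and 8.51 and 8.34 in Hep-3B shKLHL23 and 8.59 and 8.60 in Hep-3B shLuc. In Huh7 both knockdown arrays were well below the controls, and in Hep-3B just below them. ADAM17 fell by 0.99 in Huh7 (SE 0.09, 1.98-fold lower, limma adjusted p = 0.000968), on 3 of 3 probe sets (-0.99 to -0.77), and held in all 17 alternatives. The Hep-3B difference was -0.17 (limma adjusted p = 0.386).

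Read by the brightest probe set of each gene, ADAM17 was the one gene of the 48 whose response passed the test of a difference between the lines, where 1.26% of all genes were called, 0.445% more positive and 0.814% more negative in Huh7. The response in Huh7 minus that in Hep-3B was -0.82 (SE 0.13, limma adjusted p = 0.034). This call was lost without 7 of the 8 arrays (adjusted p up to 0.155, differences -0.90 to -0.74), Huh7 shKLHL23 replicate 3 being the exception. Before adjustment, at p under 0.05, limma counted 5 genes with a more positive response in Huh7 and 8 with a more negative one, against 5.62% and 9.12% of all genes.

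ADAM10, a related sheddase, read 9.33 and 9.69 in Huh7 shKLHL23 and 9.95 in both Huh7 shLuc arrays, and 10.74 and 10.75 in Hep-3B shKLHL23 and 10.77 and 10.84 in Hep-3B shLuc. In Huh7 both knockdown arrays were below the controls, with replicate 1 the lower. ADAM10 fell by 0.44 in Huh7 (SE 0.12, limma adjusted p = 0.0475), and the Hep-3B difference was -0.06 (limma adjusted p = 0.855). MMP15, a membrane-bound metalloprotease, read 7.62 and 7.79 in Huh7 shKLHL23 and 7.22 and 7.33 in Huh7 shLuc, and 7.54 and 7.76 in Hep-3B shKLHL23 and 7.70 and 7.61 in Hep-3B shLuc. The Huh7 groups were separate and the Hep-3B groups overlapped. MMP15 rose by 0.43 in Huh7 (SE 0.11, limma adjusted p = 0.0374). Both calls were close to the threshold: ADAM10 lost its call without any of 7 of the 8 arrays (adjusted p up to 0.181, with a difference of -0.26 without Huh7 shKLHL23 replicate 1) and MMP15 without any of 6 (up to 0.197). On the one MMP15 probe set outside the _s_at and _x_at designs the Huh7 difference was 0.0419 (adjusted p = 0.856). Over all probe sets 0 of 3 ADAM10 and 0 of 2 MMP15 probe sets were called in Huh7 (adjusted p of 0.0675 and 0.055 for those given here).

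The other 6 genes of this role, MMP2, MMP14, ADAM9, PLAU, PLAUR and LOXL2, lay between 0.02 (MMP2) and 0.40 (LOXL2) in Huh7 and between -0.15 (LOXL2) and 0.11 (PLAUR) in Hep-3B. PLAU, the urokinase plasminogen activator, differed by 0.39 in Huh7 (limma adjusted p = 0.0625). LOXL2, which crosslinks collagen, read 5.24 and 4.26 in Huh7 shKLHL23 and 4.43 and 4.28 in Huh7 shLuc, and 5.78 and 5.65 in Hep-3B shKLHL23 and 5.95 and 5.77 in Hep-3B shLuc. Its Huh7 difference rested on shKLHL23 replicate 1, and the other array lay at the control level.

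Over the 48 genes the median log2 difference was 0.05 in Huh7, where the median of all genes was 0.00, and 0.03 in Hep-3B, where it was 0.02. Knockdown and control arrays did not overlap for 30 genes in Huh7 (18 higher, 12 lower), against 53.7% of all genes (26.5% higher, 27.2% lower), and for 24 in Hep-3B (13 higher, 11 lower), against 53% of all genes (29.4% higher, 23.5% lower). On the mean of the 2 lines' differences 5 genes rose (FBN1, HSPG2, SPARC, TIMP1 and TIMP2) and 3 fell (FBLN1, ITGA2 and ADAM17), where 15.6% of all genes were called, 7.6% higher and 8.02% lower. A call on the mean does not show a change in both lines. HSPG2 differed by 0.00 and ADAM17 by -0.17 in Hep-3B, and SPARC by 0.04 in Huh7, so their means rest mainly on the other line.

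The control cells already differed in these genes. Between Huh7 shLuc and Hep-3B shLuc, 28 of the 48 were called, 10 higher and 18 lower in Huh7, where 32.7% of all genes were called, 17.7% higher and 14.9% lower. Control arrays of the lines did not overlap for 43 genes (15 higher, 28 lower in Huh7), against 67.1% of all genes (35.5% higher, 31.6% lower). The median difference was -0.21, where the median of all genes was 0.02.

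Beside the knockdown results in Huh7, the control lines gave the following values for the genes that rose there. HSPG2 differed by -1.34 between the controls (limma adjusted p = 1.18e-05), TIMP2 by -1.78 (limma adjusted p = 2.87e-05), LAMB3 by -0.71 (limma adjusted p = 0.00106) and MMP15 by -0.39 (limma adjusted p = 0.0267), while TIMP1 was not called (-0.12, limma adjusted p = 0.666). Of the genes that fell in Huh7, FBLN1 and LAMB1 were higher in Huh7 controls, by 1.0 and 0.63, ITGA2 and ADAM10 were lower, by -0.93 and -0.86, and ADAM17 was not called at -0.04. This comparison shares the Huh7 control arrays with the Huh7 knockdown comparison, so a high or low control array enters both.

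Among the genes called by neither knockdown comparison, the widest gap was in SPARC, at 3.72 and 3.58 in Huh7 shLuc against 6.94 and 7.06 in Hep-3B shLuc (-3.35, limma adjusted p = 3.32e-07). NID1 was higher by 1.51 in Huh7 controls (limma adjusted p = 3.94e-06) and ITGA1 by 1.32 (limma adjusted p = 0.00683). LOXL2 was lower at -1.51 (limma adjusted p = 0.00196) and LAMB2 at -0.96 (limma adjusted p = 0.000652). The beta chains of integrins on this list were lower or not called in Huh7, with ITGB1 at -0.43 and ITGB4 at -0.72. FN1 was lower in Huh7 controls on 3 of its 7 probe sets, where 25.8% of all probe sets were called and 12.9% were lower, and its brightest probe set was not called (-0.22, limma adjusted p = 0.13 over all probe sets).

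**Figure D4:**
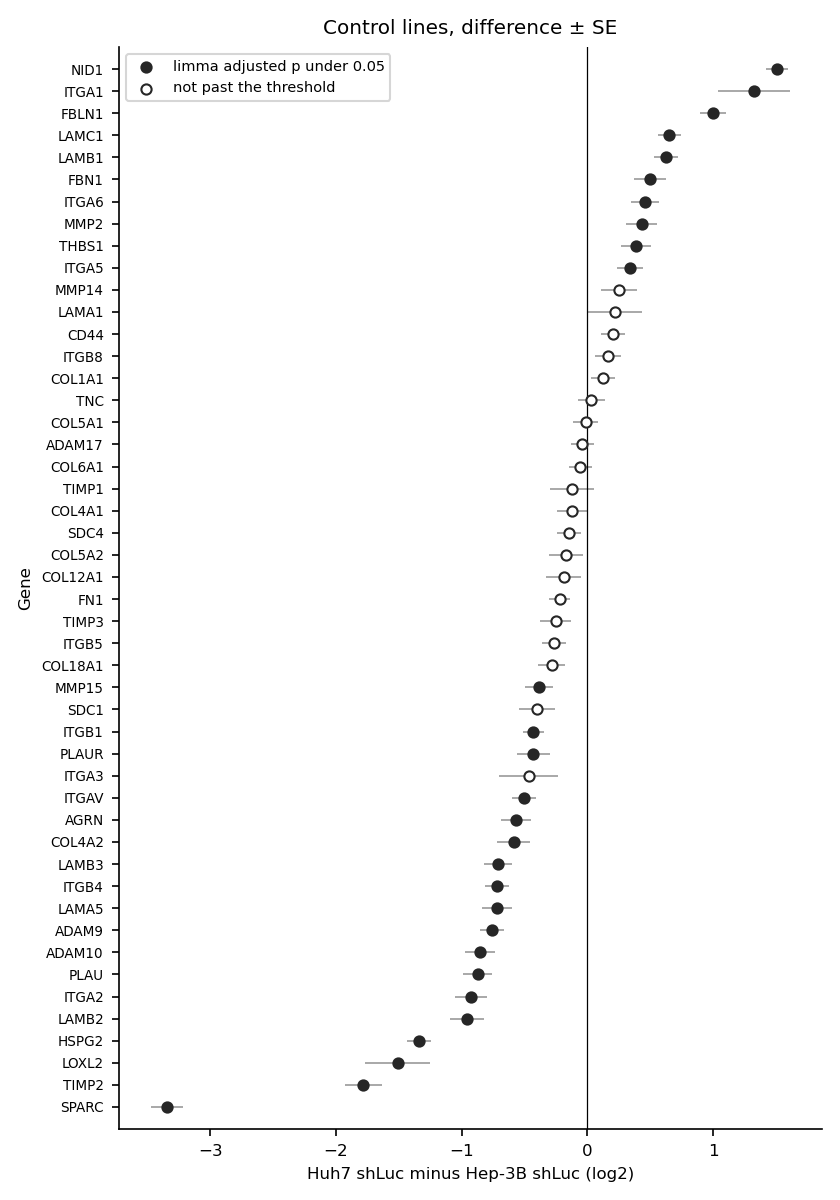
Log2 difference Huh7 shLuc minus Hep-3B shLuc of the 48 genes, with bars of 1 standard error from limma and filled points for calls at an adjusted p under 0.05. SPARC lies farthest to the left at -3.35 and NID1 farthest to the right at 1.51.

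Other genes of the same pathways were taken as lists, whose counts stand beside 5.75% of all genes called higher and 7.73% called lower in Huh7, and 0.536% and 0.157% in Hep-3B. At an unadjusted p under 0.05 the shares of all genes were 27.5% in Huh7 and 17.7% in Hep-3B. In Huh7, 0 of 24 other collagen chains and 0 of 8 other laminins, nidogen and basement membrane receptors passed the limma test, with 1 and 2 of them at an unadjusted p under 0.05. Among 15 other integrin subunits 1 fell (ITGA4), and it lay below the lower quartile in all 8 arrays. In Hep-3B none of these 3 lists held a called gene, and 2, 0 and 2 genes had an unadjusted p under 0.05.

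Of 21 integrin adaptors and kinases, 2 rose and 2 fell in Huh7 and 0 were called in Hep-3B, where limma counted 5 at an unadjusted p under 0.05. FERMT2, encoding kindlin 2, which activates integrins, read 9.05 and 9.06 in Huh7 shKLHL23 and 10.23 and 10.18 in Huh7 shLuc. In Hep-3B it read 9.63 and 9.65 with shKLHL23 and 9.68 and 9.77 with shLuc. It fell by 1.15 in Huh7 (SE 0.09, limma adjusted p = 0.000503), on 3 of 3 probe sets. TLN1, encoding talin, which links integrins to actin, rose by 0.53 in Huh7 (limma adjusted p = 0.0323) and KANK2 by 0.51 (limma adjusted p = 0.0442). Over all probe sets, 1 of 3 TLN1 and 0 of 3 KANK2 probe sets were called there. The KANK2 probe sets ranged from 0.20 to 0.51 in Huh7 and, without a call, from 0.05 to 0.59 in Hep-3B.

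Of 38 other matrix glycoproteins and proteoglycans, 3 rose and 2 fell in Huh7 and 0 were called in Hep-3B, where limma counted 9 at an unadjusted p under 0.05. SPP1, encoding osteopontin, read 11.59 and 12.12 in Huh7 shKLHL23 and 9.79 and 9.71 in Huh7 shLuc, and rose by 2.10 (SE 0.15, limma adjusted p = 0.000474), on both of its probe sets. In Hep-3B it was high with and without the knockdown, at 12.16 and 12.11 with shKLHL23 and 12.12 and 12.14 with shLuc. THBS2, a relative of THBS1, fell by 1.22 in Huh7 (limma adjusted p = 0.00666) and LTBP3, which binds latent TGF-beta, rose by 0.46 (limma adjusted p = 0.047). Over all probe sets, 0 of 3 LTBP3 probe sets were called in Huh7, and they ranged from -0.01 to 0.46.

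Of 27 other metalloproteases and inhibitors, 2 rose in Huh7 and 1 in Hep-3B. MMP7, encoding matrilysin, read 9.01 and 9.21 in Huh7 shKLHL23 and 5.65 and 5.54 in Huh7 shLuc, and 5.34 and 5.86 in Hep-3B shKLHL23 and 4.42 and 4.45 in Hep-3B shLuc. All knockdown arrays lay above the controls of their line. It rose by 3.52 in Huh7 (SE 0.16, limma adjusted p = 7.3e-05) and by 1.17 in Hep-3B (SE 0.16, limma adjusted p = 0.0258). MMP24, a membrane-bound metalloprotease, rose by 0.43 in Huh7 (limma adjusted p = 0.03).

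Of 12 other plasminogen system and serine protease genes, 5 rose and 0 fell in Huh7 (5.75% and 7.73% of all genes), where at an unadjusted p under 0.05 limma counted 7 higher and 0 lower, and 0 were called in Hep-3B, where it counted 2. HPN, encoding the membrane serine protease hepsin, read 8.62 and 8.73 in Huh7 shKLHL23 and 6.97 and 7.19 in Huh7 shLuc, and rose by 1.60 (SE 0.14, limma adjusted p = 0.000822). SPINT1, an inhibitor of such proteases, read 7.37 and 7.10 in Huh7 shKLHL23 and 6.0 and 5.85 in Huh7 shLuc, and rose by 1.31 (limma adjusted p = 0.00125), on 1 of 2 probe sets. TMPRSS2, another membrane serine protease, rose by 0.95 (limma adjusted p = 0.00326).

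Of 27 collagen processing enzymes and chaperones, 5 rose and 3 fell in Huh7 and 1 rose in Hep-3B. SEC24D, a coat protein that carries procollagen out of the endoplasmic reticulum, rose by 1.05 in Huh7 (SE 0.18, limma adjusted p = 0.00849). Over all probe sets 2 of its 3 were called there, and in Hep-3B they lay between 0.46 and 0.78 without a call. LOX, which crosslinks collagen and elastin, read 8.72 and 9.67 in Huh7 shKLHL23 and 10.36 and 10.33 in Huh7 shLuc, and fell by 1.15 (SE 0.31, limma adjusted p = 0.0414). Over all probe sets 1 of its 3 was called in Huh7. The 3 LOX probe sets lay between -1.15 and -0.77 in Huh7 and, without a call, between -1.40 and -0.90 in Hep-3B. PCOLCE2, an enhancer of procollagen processing, read 6.60 and 6.57 in Huh7 shKLHL23 and 7.42 and 7.43 in Huh7 shLuc, against 4.83 and 5.28 in Hep-3B shKLHL23 and 3.64 and 4.04 in Hep-3B shLuc. It fell by 0.84 in Huh7 (limma adjusted p = 0.0149) and rose by 1.22 in Hep-3B (limma adjusted p = 0.0258).

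**Figure D5:**
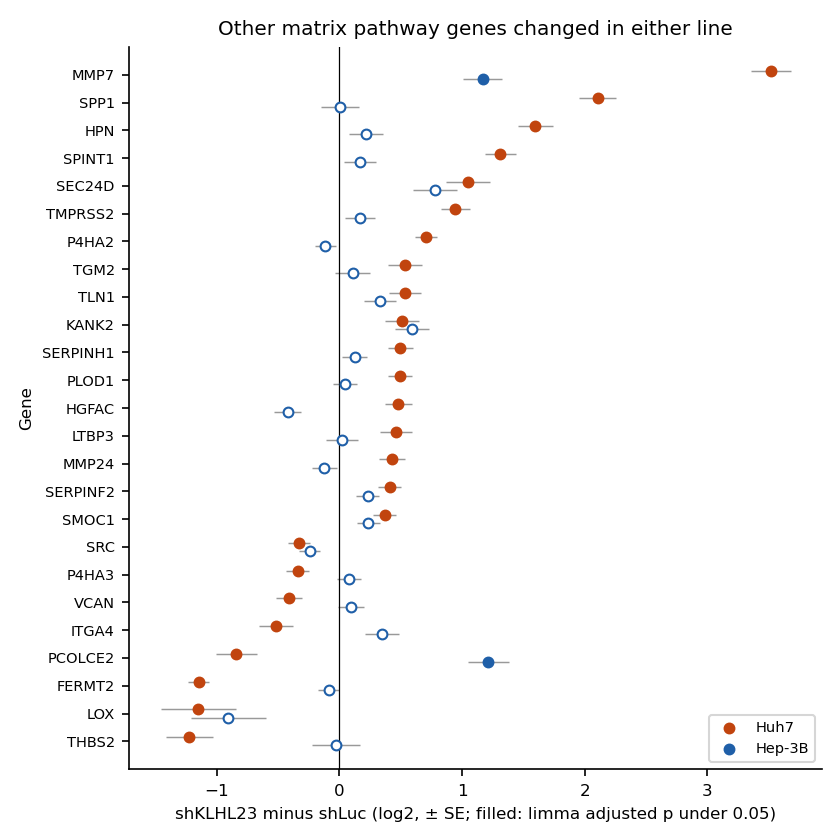
Log2 difference shKLHL23 minus shLuc of the other pathway genes called in either line, ordered by the Huh7 value, with bars of 1 standard error and filled points for calls at a limma adjusted p under 0.05. MMP7 lies farthest to the right in Huh7 at 3.52 and is filled at 1.17 in Hep-3B, and PCOLCE2 is filled on opposite sides of 0 in the 2 lines.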

How the data were processed

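The 8 arrays were grouped by the cell line and hairpin that the labels name. Per the submitters' processing notes, the authors made the deposited log2 values with RMA, using Affymetrix Expression Console 1.2. RMA gives all arrays the same distribution, so a change in total RNA per cell is hidden and changes of dim probe sets shrink. A genome build and further settings are not given in the sources used here. Array medians lay between 4.563 and 4.597. Precision is limited by the number of arrays, 2 in each group, which leave 4 residual degrees of freedom beside 4.59 prior ones.

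Of 54675 probe sets 41097 had 1 gene symbol in the platform annotation, 1801 had several and 11777 had none there. Symbols of 41043 were looked up by gene identifier in RefSeq, and 0 changed. Each gene was represented by its single-symbol probe set with the highest mean, dim ones included, giving 19775 genes. A model with 4 group means was fitted to all arrays with limma 3.58.1 in R 4.3.3 (lmFit and eBayes), with Benjamini-Hochberg adjustment over all genes, or over all probe sets for FN1 and for single probe sets, with calls at 0.05. The contrasts were shKLHL23 minus shLuc in each line, their mean, the Huh7 response less that of Hep-3B, and Huh7 shLuc minus Hep-3B shLuc. SE stands for limma's moderated standard error. The procedure was run on data simulated with independent normal noise at limma's own estimated spread. Such data cannot show how it handles effects shared between arrays or technical duplicates.

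The genes, lists and rule for named genes were chosen with earlier results of these data known, so no test was made over a list. Values in every array are given for genes called in either line or in the difference between lines, and for the 5 others with the widest gap between control lines. They are also given for probe sets that were called in a knockdown comparison but disagree with the gene's brightest one. Of each pathway list up to 3 called genes per line with the widest difference are named. Samples with the same replicate number did not deviate together (correlation of deviations -0.07 in Hep-3B and 0.062 in Huh7), so the numbers were not used to pair arrays. Alternatives were quantile normalization or median centring of the log2 values, leaving out dim genes, averaging each gene's probe sets, leaving out _x_at and _s_at designs, all probe sets, a trended robust fit, array weights, the replicate block, each line alone, and leaving out each array.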

Additional observations from a re-analysis of the deposited data

Results flagged for a closer look

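The results below stood out because the response to the knockdown differed between Huh7 and Hep-3B by limma's test of that difference, with Benjamini-Hochberg adjustment over all genes or all probe sets. Each value is the log2 response in Huh7 minus that in Hep-3B. Among the 48 genes, ADAM17 was at -0.82 (adjusted p = 0.034). Among single probe sets, FN1 214701_s_at was at 1.86 (adjusted p = 0.0232) and TIMP3 201149_s_at at 0.89 (adjusted p = 0.0449). THBS1 was at 2.15 on 201107_s_at (adjusted p = 0.0114), at 1.30 on 215775_at (adjusted p = 0.0114) and at 2.27 on 239336_at (adjusted p = 0.0269).

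Among the other pathway genes, the response was more positive in Huh7 for MMP7 (2.35, adjusted p = 0.00837), SPP1 (2.10, adjusted p = 0.00837), HPN (1.38, adjusted p = 0.0233), SPINT1 (1.14, adjusted p = 0.034), HGFAC (0.90, adjusted p = 0.0413) and P4HA2 (0.82, adjusted p = 0.0272). It was more negative in Huh7 for FERMT2 (-1.06, adjusted p = 0.0098) and PCOLCE2 (-2.06, adjusted p = 0.0101). The 3 probe sets of P4HA2 ranged from -0.20 to 0.71 between knockdown and control in Huh7, and 1 of them rose. With 2 arrays a group, leaving out 1 array ended the call of ADAM17 for 7 of 8 arrays, that of the TIMP3 probe set for 7, that of the FN1 probe set for 6, and those of the THBS1 probe sets for 5 or 6. The bile duct cell marker KRT19 was at 1.14 (adjusted p = 0.0476). How the calls of KRT19 and the other pathway genes depend on single arrays was not examined. The knockdown of KLHL23 itself passed the test in Huh7 and not in Hep-3B, and its part in these differences was not tested. The ACTB gap given above, a sign of RNA quality, also moved in opposite directions, lower with shKLHL23 in Huh7 and higher in Hep-3B. For GAPDH the Huh7 groups overlapped and the gap was higher with shKLHL23 in Hep-3B. The part of these gaps in the differences between lines, single probe sets included, was not tested.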

How the results depend on the processing

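ITGA2, TIMP2 and ADAM17 kept their Huh7 calls under all 17 alternatives tried for each, with adjusted p up to 0.0235, 0.0316 and 0.0184. Of 805 values of named genes and probe sets under the alternatives, 670 kept their side of the threshold, 109 lost a call and 26 gained one. Of the values called in either fit, 0 reversed. Of 393 called in neither fit, the fits of each line alone not counted, 14 changed sign, and these are among the 670. The count of called genes in Hep-3B, 1 as reported, was 4 with a trended robust fit, 3 with array weights, 3 over all probe sets, 2 with the replicate block and 0 with probe sets averaged per gene, without _x_at and _s_at designs or with the line fitted alone. Leaving out 1 array gave 0 to 5, the 5 without Hep-3B shKLHL23 replicate 1. In Huh7, 10 as reported, it was 6 without _x_at and _s_at designs, 5 with the line alone, 7 with the replicate block and at most 13, without dim genes, and leaving out 1 array gave 4 to 10, the 4 without either shLuc array. On the mean of the lines, 8 as reported, it was 13 without dim genes, 13 with the trended robust fit and 5 without _x_at and _s_at designs, and 5 to 11 with an array left out. For the difference between lines, 1 as reported, it was 3 without dim genes, 3 with the trended robust fit, 4 over all probe sets, 2 without _x_at and _s_at designs and 0 with the replicate block, and 0 to 2 with an array left out. Between control lines, 28 as reported, it ranged from 20 to 34. FN1 probe sets called in Hep-3B, 2 as reported, were 0 with the line alone and 0 to 3 with an array left out. In Huh7, 0 as reported, they were 1 with the trended robust fit and 0 to 1 with an array left out, and between control lines, 3 as reported, 7 with the trended robust fit and 2 to 3 with an array left out. The replicate block was an alternative only, since arrays with the same number did not deviate together. Over all genes the calls ranged from 0 to 1134 in Hep-3B (137 as reported), 562 to 3407 in Huh7 (2666) and 7 to 560 for the difference between lines (249). Where an array is left out, the lone array of its group is assumed to vary like the other groups. The cause of these shifts was not tested. The precision of each value is limited by the number of arrays. TNC, ITGB8 and COL5A2 lie near the floor, as does the FBN1 probe set outside the _s_at and _x_at designs. COL5A1, COL12A1, COL4A1, LAMA1 and CD44 were dim too, from 3.185 (LAMA1) to 3.929 (CD44). The lower quartiles of the arrays were 3.08 to 3.12, so changes in these genes may not have been measured well.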
